A study of Mus musculus with 8 samples.

Results

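The CCN family consists of secreted matricellular proteins, which sit in the extracellular matrix and modulate how cells respond to it rather than serving as structural fibres. The 5 genes described here are Ccn1 (formerly Cyr61), Ccn2 (Ctgf), Ccn3 (Nov), Ccn4 (Wisp1) and Ccn5 (Wisp2). All probes that the annotation of the array assigns to these genes, by symbols updated to RefSeq, were taken, which gave 7 of 24613 probes and 5 of 15967 genes. The family was selected on the measured signals of Ccn1 and Ccn2, which were higher in both Pax6 lines than in the control line, so the values of the family in these comparisons are a description and carry no test.

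The signals came from 8 Illumina Mouse Ref-8 V1.1 arrays hybridised with RNA of FlpIn-3T3 cells, a mouse embryonic fibroblast line with a single site for the insertion of a transgene. The 3T3-Pax6 line (2 arrays, passages 9 and 15) carries the cDNA of mouse Pax6, the 3T3-Pax6(5a) line (3 arrays, passages 8, 8 and 13) that of the splice form Pax6(5a), and the FlpIn-3T3 control line (3 arrays, passages 13, 13 and 19) neither. Pax6 is a paired-domain and homeodomain transcription factor of eye and brain development, and the extra exon of Pax6(5a) alters the DNA binding of its paired domain. The cDNAs were expressed from an elongation factor promoter of the vector, the Pax6 lines were grown in hygromycin and the control line in Zeozin (Zeocin), so the drug cannot be told apart from the insert. Each insert is represented by 1 line, and the sources do not say whether the same-passage preparations were grown as separate cultures, so p-values measure only the spread between these arrays.

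Detection of a probe was taken as a detection p-value under 0.01, which 10083 to 10685 probes per array met. Signals are intensities after quantile normalization, in array units. The Pax6 probe was detected on no array: its signal was 51.4 and 56.8 in the 3T3-Pax6 line, 47.4, 50.6 and 47.2 in the 3T3-Pax6(5a) line, and 45.2, 48.2 and 52.5 in the control line. It gives no check of the inserts, as the sources do not say whether this probe lies in the inserted cDNA. The study itself reports expression of the inserted isoform in each Pax6 line, by RT-PCR and by Western blot. Its RT-PCR found neither isoform in the control line. Of 9 measured fibroblast markers, 8 were detected on all 8 arrays and Col3a1 on 2, and of 7 epithelial markers 0 were detected on any array.

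CCN proteins are built from modules that resemble insulin-like growth factor binding protein, the von Willebrand factor type C repeat, the thrombospondin type 1 repeat and a C-terminal cystine knot, the last of which Ccn5 lacks. They bind integrins, heparan sulphate proteoglycans and several growth factors. In fibroblasts, Ccn1 and Ccn2 are immediate early genes known to respond to serum, to transforming growth factor beta (TGF-beta) and to mechanical tension, and they are textbook targets of the coactivators YAP and TAZ with their DNA-binding partners of the TEAD family. Ccn4 and Ccn5 were first described as genes induced by Wnt1.

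The proximal promoter of Ccn1 is shown because Ccn1 is the member for which a promoter sequence was at hand (1 of 5 genes, RefSeq, GRCm38.p6). It covers the 250 bases before the transcription start, chr3:145649986-145650235 on the minus strand. The capitals mark, in order, a TEAD motif, a half-site for the factor CREB and a TATA box, and the motifs to capitalise were chosen after the matches were seen.
Ccn1 promoter: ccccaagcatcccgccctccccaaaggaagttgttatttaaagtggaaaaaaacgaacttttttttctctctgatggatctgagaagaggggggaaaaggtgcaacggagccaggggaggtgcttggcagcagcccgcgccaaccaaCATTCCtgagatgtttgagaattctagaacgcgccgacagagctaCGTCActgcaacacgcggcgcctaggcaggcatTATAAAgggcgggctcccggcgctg
The TEAD motif CATTCC began 103 bases before the start, the CREB half-site CGTCA 58 bases and the TATA box TATAAA 25 bases before it. On either strand, these letters were held by 12.6%, 17.8% and 12.4% of 32851 mouse promoters of the same length. The SMAD half-site CAGAC, found in 42.2% of these promoters, the AP-1 motif TGANTCA (6.75%), the CArG box bound by serum response factor (1.47%) and the 5aCON half-site, a consensus for Pax6(5a) (0.0761%), had no match in this window. A match is a description of letters, and the arrays hold no measurement of binding.

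For Ccn2, on chromosome 10, the study designed 6 primers, a pair for quantitative PCR and the others for its promoter. A promoter set is shown because 1 of the 6 Ccn2 primers contains the TEAD motif on its other strand, in capitals. Windows of 20 bases in the same promoters held this motif in 0.842% of cases, which is a share per window and not per group of primers. By chromatin immunoprecipitation with a Pax6 antibody, the study reports enrichment of the Ccn2 promoter in both Pax6 lines. Which primer set gave this enrichment was not checked here. The study's sequence search, with mismatches allowed, also found half-sites for the splice form upstream of the Ccn2 start. By quantitative PCR, it reports higher Ccn2 in both Pax6 lines than in the control line.
Ccn2 promoter primer, forward: gacggaGGAATGtggagtgt
Ccn2 promoter primer, reverse: ggagtggatctggctgagtc

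Ccn2, a profibrotic matrix protein and a mediator of TGF-beta responses, had the family's largest difference from the control line. Its probe, ILMN_1238215, gave 1508 and 1533 in the 3T3-Pax6 line, 1252, 1345 and 892 in the 3T3-Pax6(5a) line, and 301, 302 and 205 in the control line. All 5 arrays of the Pax6 lines lay above all 3 control arrays, and the probe was detected on all 8 arrays. The mean signal was 1521 ± 17.2 (SD, n = 2) with Pax6, 1163 ± 239 (SD, n = 3) with Pax6(5a) and 269 ± 56.1 (SD, n = 3) in the control line. The fold change against the control line was 5.73 with Pax6 (log2 2.52, SE 0.18) and 4.32 with Pax6(5a) (log2 2.11, SE 0.16).

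Ccn1, an angiogenic and adhesive family member that signals through integrins, is read by a pair of probes that both reported higher signals in the Pax6 lines. The brighter, ILMN_2710253, gave 687 and 533 in the 3T3-Pax6 line, 431, 499 and 310.3 in the 3T3-Pax6(5a) line, and 208, 215 and 118 in the control line. The 3 lines did not overlap, with the Pax6 line highest and the control line lowest. The fold change against the control line was 3.48 with Pax6 (log2 1.80, SE 0.24) and 2.33 with Pax6(5a) (log2 1.22, SE 0.21). The second probe, ILMN_1235571, gave 187 and 265 in the 3T3-Pax6 line, 214, 237 and 207 in the 3T3-Pax6(5a) line, and 126, 114 and 88.6 in the control line. With this probe the Pax6 lines overlapped each other and both lay above the control line, by 2.05-fold with Pax6 (log2 1.04, SE 0.16) and 2.02-fold with Pax6(5a) (log2 1.01, SE 0.14).

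Ccn4, a family member expressed in developing bone and in tumour stroma, was detected on all 8 arrays by 1 of its probes, ILMN_2492264. Its signal was 491 and 447 in the 3T3-Pax6 line, 481, 479.9 and 417 in the 3T3-Pax6(5a) line, and 556, 566 and 511 in the control line. Every array of the Pax6 lines lay below every control array, by a margin that was small beside those of Ccn1 and Ccn2: the log2 fold change was -0.21 (SE 0.09) with Pax6 and -0.25 (SE 0.08) with Pax6(5a). The share of all probes whose arrays separate the lines in this way was not counted. The other Ccn4 probe, ILMN_2453775, was detected on no array, at 46.8 to 52.2.

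Ccn5, which opposes Ccn2 in some fibroblast and muscle settings, was dim and was detected only on the 2 control arrays of passage 13. The probe, ILMN_1241893, gave 57.3 and 48.3 in the 3T3-Pax6 line, 61.7, 68.9 and 55.1 in the 3T3-Pax6(5a) line, and 93.1, 99.9 and 68.7 in the control line. As no array of either Pax6 line detected it, only a bound can be given: Ccn5 was at least 1.07-fold lower with Pax6, and with Pax6(5a) at least 1.11-fold lower, taking for each array of the Pax6 lines the lowest signal that it detected for any probe. The control mean behind these bounds holds its 3 arrays as measured, of which passage 19 was undetected too, so they are approximate. The measured means were 52.8 ± 6.36 (SD, n = 2), 61.9 ± 6.88 (SD, n = 3) and 87.3 ± 16.4 (SD, n = 3) in the Pax6, Pax6(5a) and control lines.

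Ccn3, a family member with growth-restraining activity, was detected on no array, and its probe ILMN_1259573 gave 45.7 to 56.4. At this signal a difference between the lines was not detectable.

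**Figure D1:**
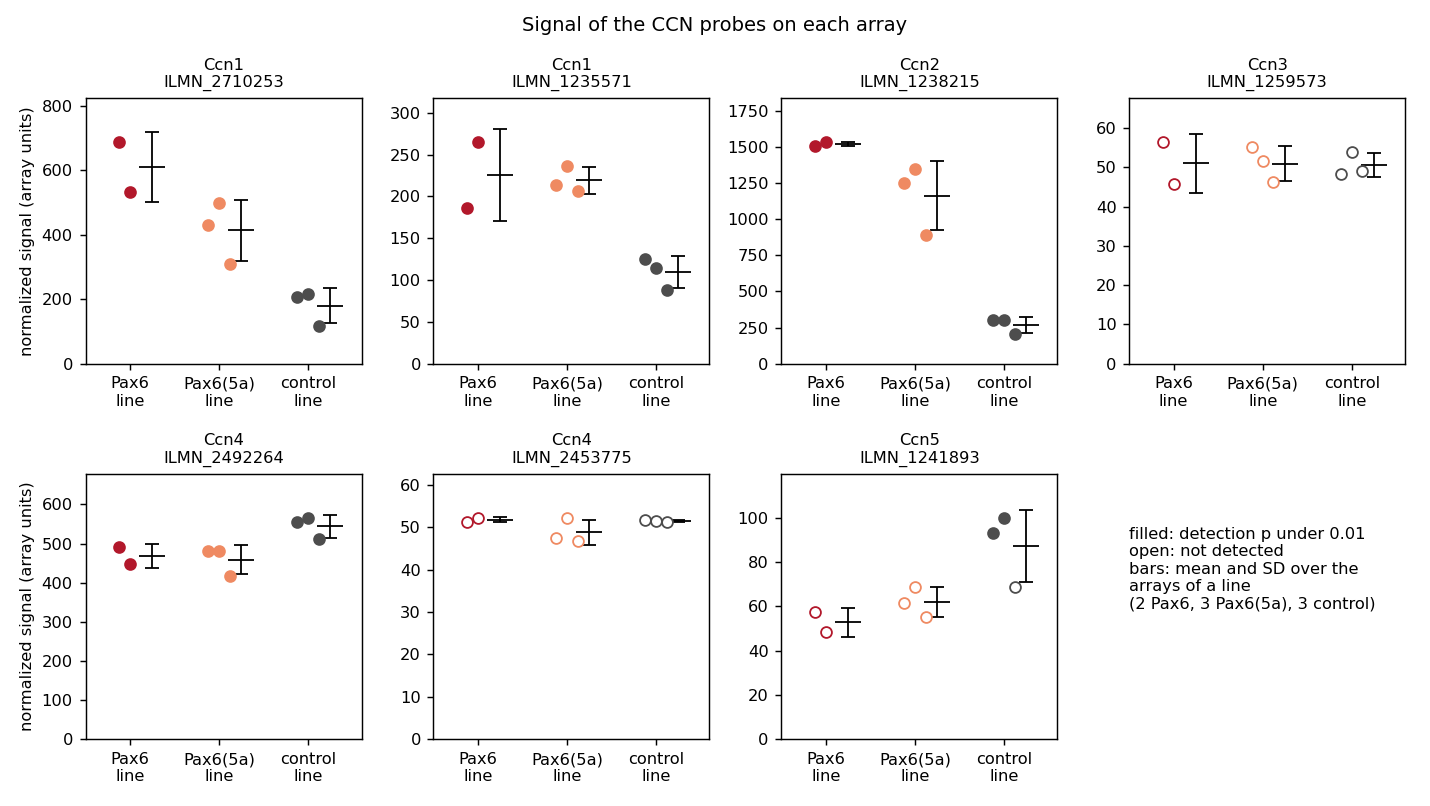
Each panel plots 1 CCN probe, with the quantile normalized signal (array units, linear axis) of every array on the y axis and the 3T3-Pax6, 3T3-Pax6(5a) and control lines along the x axis. Bars give the mean and SD over the arrays of a line. Filled points were detected at a detection p-value under 0.01. Ccn2 sits between 892 and 1533 in the Pax6 lines and between 205 and 302 in the control line, while Ccn3 and the second Ccn4 probe are open on all 8 arrays.

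Counted by gene at threshold 2 of the study, with an adjusted p below 0.01 and at least a 1.5-fold difference, 2 of 5 CCN genes were higher with Pax6 and 2 with Pax6(5a), Ccn1 and Ccn2 each time, and 0 were lower. Over all probes the share past this threshold was 0.841% higher and 1.17% lower with Pax6, and 0.439% higher and 0.528% lower with Pax6(5a). The choice of the family rests on these very values, so nothing is read from the counts. Both comparisons share the control arrays. Ccn2 in both lines and Ccn1 with Pax6 also met threshold 1 (adjusted p below 0.001, at least 1.7-fold).

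The calls of Ccn1 depended on single arrays. Without the Pax6 array of passage 9, ILMN_2710253 was 1.61 higher with Pax6 on the log2 scale and no longer past threshold 2, and without the Pax6 array of passage 15, ILMN_1235571 was 0.79 higher and likewise not past it. For Pax6(5a), ILMN_2710253 lost its call without either control array of passage 13 (log2 1.35 and 1.37) and without either Pax6(5a) array of passage 8 (1.18 and 1.07). Ccn5 passed threshold 2 as lower under 5 of 21 alternatives with Pax6 and 3 of 22 with Pax6(5a), though neither line detected it.

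Passage number differs between the lines, and passage 13 is the only one that a Pax6 line shares with the control line. At passage 13, Ccn2 was 892 on the Pax6(5a) array and 301 and 302 on the control arrays, a log2 fold change of 1.56 (SE 0.10) against 2.11 over all passages. For Ccn1, ILMN_2710253 was 310.3 on the Pax6(5a) array against 208 and 215 on the control arrays, a log2 fold change of 0.55 (SE 0.12), which is not past threshold 2. ILMN_1235571 was 207 on the Pax6(5a) array against 126 and 114 on the control arrays, a log2 fold change of 0.79 (SE 0.11). Ccn4 was 417 on the Pax6(5a) array against 556 and 566 on the control arrays. Ccn5 was 55.1 and undetected on the Pax6(5a) array, against 93.1 and 99.9 on the control arrays, and it passed threshold 2 as lower there. With passage number as a covariate, ILMN_2710253 was 1.47 higher with Pax6 and 0.64 higher with Pax6(5a) on the log2 scale, and Ccn2 2.32 and 1.75 higher. The comparison at passage 13 was chosen after seeing the data and rests on 1 Pax6(5a) array.

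The comparison of the Pax6 line with the Pax6(5a) line was not used to choose the family. Each isoform is a single line, so isoform and line cannot be told apart. Here and below, a difference between the isoforms means one between these lines. Of the 5 genes, 0 passed threshold 2, where 0.228% of all probes were higher and 0.341% lower with Pax6. Ccn1 by ILMN_2710253 was 1.49-fold higher with Pax6 (log2 0.58, 95% interval 0.06 to 1.10, adjusted p = 0.36, limma), with 2 of 2 Pax6 arrays above all 3 Pax6(5a) arrays. By ILMN_1235571 the log2 difference was 0.02 (95% interval -0.32 to 0.36, adjusted p = 0.98, limma), and the lines overlapped. Ccn2 was 1.33-fold higher with Pax6 (log2 0.41, 95% interval 0.02 to 0.80, adjusted p = 0.40, limma), and again both Pax6 arrays lay above all 3 Pax6(5a) arrays. The share of all probes whose arrays separate these lines was not counted, so nothing is read from either separation. Ccn4 differed by a log2 of 0.03 (95% interval -0.17 to 0.24, adjusted p = 0.95, limma).

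The Ccn1 difference between the isoforms depended on how passage was treated. With earlier or later passage as a block, ILMN_2710253 was 0.68 higher with Pax6 on the log2 scale (SE 0.11, adjusted p = 0.0019, limma), and with passage number as a covariate 0.83 higher (SE 0.11, adjusted p = 6e-04, limma), both past threshold 2. Over all the alternatives its adjusted p ranged from 6e-04 to 0.79. ILMN_1235571 passed under none of the 21 alternatives, at adjusted p-values of 0.68 to 0.99.

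**Figure D2:**
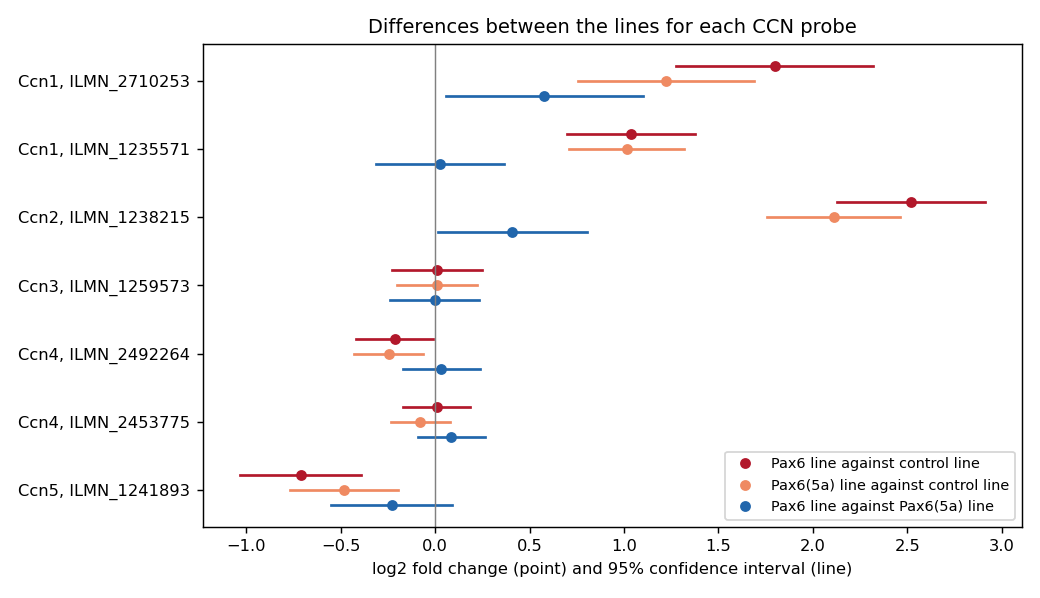
For each CCN probe, listed down the page, points give the log2 fold change (x axis) and lines its 95% confidence interval from limma, for the Pax6 line against control, the Pax6(5a) line against control, and the Pax6 line against the Pax6(5a) line. Ccn2 stands at 2.52 and 2.11 against the control line and at 0.41 between the isoforms. The values for Ccn3, Ccn5 and ILMN_2453775 are fitted to signals that were undetected on most or all arrays.

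Every line was read at an earlier and a later passage, so the arrays also show how the family varied with time in culture. The brighter Ccn1 probe fell by 0.62 on the log2 scale at the later passage (SE 0.09, adjusted p = 0.0018, limma with a mean for each line) and passed threshold 2, where 0.11% of all probes were higher and 0.114% lower. ILMN_2710253 was 533 at passage 15 against 687 at passage 9 in the Pax6 line, 310.3 at passage 13 against 431 and 499 at passage 8 in the Pax6(5a) line, and 118 at passage 19 against 208 and 215 at passage 13 in the control line. It was thus lower at the later passage in 3 of 3 lines. How many of all probes move alike in 3 of 3 lines was not counted, here or for the genes below. The call was lost without the later control array (log2 -0.49), without the later Pax6(5a) array (-0.64), with background correction by neqc (-0.76), with preparations of a passage averaged (-0.60) and with the replicate number as a block (-0.50), at adjusted p-values of up to 0.53 (limma). ILMN_1235571 did not follow it: the difference was -0.07 over the lines (adjusted p = 0.87, limma), with a higher signal at the later passage in the Pax6 line and a lower one in the other lines.

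Ccn2 differed by -0.39 on the log2 scale at the later passage (95% interval -0.59 to -0.19, adjusted p = 0.039, limma), which is not past threshold 2. Its signal was 1533 at the later against 1508 at the earlier passage in the Pax6 line, 892 against 1252 and 1345 in 3T3-Pax6(5a) cells, and 205 against 301 and 302 in the control line. The Pax6(5a) and control lines were thus lower at the later passage, while the later and earlier Pax6 arrays differed by 0.023 on the log2 scale. Ccn4 was lower at the later passage in 3 of 3 lines, by -0.16 (95% interval -0.29 to -0.02, adjusted p = 0.25, limma). Ccn5 was detected on no later array, so no difference between passages is given for it.

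**Figure D3:**
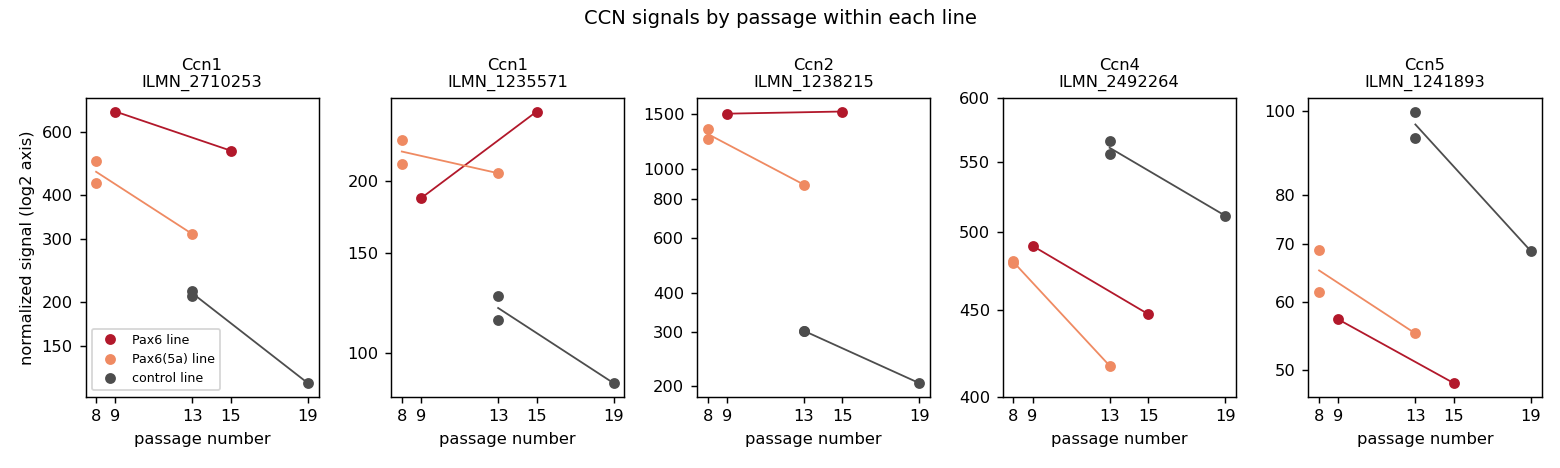
Each panel plots 1 CCN probe, with passage number on the x axis and the quantile normalized signal on a log2 y axis. Points are arrays and lines join the means of the passages of a line. ILMN_2710253 of Ccn1 is lower at the later passage in all 3 lines, whereas ILMN_1235571 is higher at the later passage, at 265 against 187, in the Pax6 line alone. Ccn5 was detected only on the control arrays of passage 13.

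Genes that act around the family were grouped into 5 lists. The lists were chosen with earlier results of these data known, so their counts and p-values are a description and not independent evidence. Of genes known as CCN receptors and binding partners, 25 of 27 were measured, 19 of them detected on at least 2 arrays. With Pax6, 0 rose and 2 fell, and with Pax6(5a) 0 rose and 1 fell. Over all genes, the shares past threshold 2 were 1.03% higher and 1.42% lower with Pax6, and 0.551% and 0.651% with Pax6(5a). The list's median log2 fold change was -0.09 with Pax6 and -0.04 with Pax6(5a), against 0.00 for all genes in both. Fn1, fibronectin, an adhesive matrix protein that binds CCN proteins, was 1569 and 1669 in the Pax6 line and 4790.2, 4664 and 2613 in the control line, a 2.40-fold fall (SE of log2 0.23, adjusted p = 0.0053, limma). Fn1 was 3146, 3087 and 2071 in the Pax6(5a) line, and its difference between the isoforms had an adjusted p of 0.16 (limma). Vegfa, the endothelial growth factor that Ccn2 can bind, was 717 and 684 in the Pax6 line against 1715, 2064 and 1498 in the control line. It was 2.49-fold lower with Pax6 (adjusted p = 0.00026, limma) and 1.45-fold lower with Pax6(5a), where it did not pass (adjusted p = 0.053, limma). Dcn, the small proteoglycan decorin, was 4502, 4081 and 6407 in the Pax6(5a) line against 8222, 8503 and 9307 in the control line. It was 1.77-fold lower with Pax6(5a) (adjusted p = 0.0046, limma) and 1.49-fold lower with Pax6, where it did not pass (adjusted p = 0.041, limma). The integrin chains through which the family signals did not pass the threshold. With Pax6, Itgb1 was 0.42, Itgb5 0.37 and Itgav 0.03 higher on the log2 scale, while Itga5 was at -0.47 and Itga6 at -0.17. Itgb1 and Itga5 met the limit on adjusted p (0.0091 and 0.0073, limma) but not the fold limit. With Pax6(5a), Itgb1 was at 0.20, Itgb5 at 0.40, Itgav at 0.28, Itga5 at -0.20 and Itga6 at 0.16.

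Of the genes of the YAP, TAZ and TEAD axis other than the family, 30 of 38 were measured and 22 were detected on at least 2 arrays. With Pax6, 2 rose and 0 fell, and with Pax6(5a) 3 rose and 0 fell. The shares over all genes were 1.03% and 1.42% with Pax6, and 0.551% and 0.651% with Pax6(5a). The median log2 fold change of the list was 0.04 and 0.02, against 0.00 for all genes. Ankrd1, a mechanosensitive ankyrin repeat protein that is a standard YAP target, was 1716 and 1552 in the Pax6 line, 1359, 1545 and 1063 in 3T3-Pax6(5a) cells, and 651, 746 and 519 in the control line. It rose 2.58-fold with Pax6 (log2 1.37, SE 0.16, adjusted p = 0.00021, limma) and 2.07-fold with Pax6(5a) (log2 1.05, SE 0.14, adjusted p = 0.0012, limma). Crim1, a membrane protein with cysteine-rich repeats, was 686 and 847 in the Pax6 line, 482, 482 and 552 in 3T3-Pax6(5a) cells, and 293, 285 and 317 in the control line. Its rise was 2.56-fold with Pax6 (adjusted p = 7.3e-06, limma) and 1.69-fold with Pax6(5a) (adjusted p = 0.00064, limma). F3, tissue factor, which starts blood clotting, was 1.78-fold higher with Pax6(5a) (adjusted p = 0.0099, limma) and 0.74 higher on the log2 scale with Pax6, where it did not pass. Amotl2, an angiomotin that restrains YAP and is also its target, was 0.72 and 0.70 higher on the log2 scale in the Pax6 and Pax6(5a) lines and passed in neither. The coactivator genes themselves did not pass, with Yap1 at -0.42 and -0.06 and Wwtr1, which encodes TAZ, at 0.04 and -0.03.

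Serum response factor (SRF) and its actin-regulated coactivators form another known input to Ccn1 and Ccn2. Of 28 measured genes of this axis, 0 rose and 1 fell with Pax6, while 1 rose and 0 fell with Pax6(5a). The shares over all genes were 1.03% and 1.42% with Pax6, and 0.551% and 0.651% with Pax6(5a). The list medians were 0.07 and 0.13, against 0.00 for all genes. Egr2, an immediate early zinc finger factor, was undetected at 61.3 and 58.6 in the Pax6 line against 116, 124 and 82.4 in the control line, at least 1.32-fold lower (adjusted p = 0.0073, limma). Egr1, its relative, had a log2 difference of -1.71 with Pax6 that did not pass (adjusted p = 0.012, limma). Acta2, smooth muscle actin and a myofibroblast marker, was 9849, 10041 and 8744 in the Pax6(5a) line against 5515, 5837 and 5203 in the control line, 1.73-fold higher (adjusted p = 0.0059, limma). At 3247 and 5173 in the Pax6 line it was 2.32-fold lower than with Pax6(5a) (adjusted p = 0.0013, limma), and thus did not share the pattern of Ccn2. Srf was at -0.17 and 0.01. Genes of this axis that passed in neither line went both ways on the log2 scale. Vcl, at 0.50 and 0.56, and Tagln2, at 0.33 and 0.55, were higher with Pax6 and with Pax6(5a). Fhl2, at -0.51 and -0.17, and Junb, at -0.34 and -0.29, were lower. The summed signal of the 6 smooth muscle markers was 3637 to 5575 with Pax6, 9193 to 10719 with Pax6(5a) and 5562 to 6351 in the control line, with Cnn1, Myh11 and Des detected on no array. Their part in the CCN values was not tested.

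TGF-beta is a known inducer of Ccn2. Of 28 measured pathway genes, 0 rose and 5 fell with Pax6, and 0 rose and 4 fell with Pax6(5a). The shares over all genes were 1.03% and 1.42% with Pax6, and 0.551% and 0.651% with Pax6(5a). The list medians were -0.15 and -0.10, against 0.00 for all genes. Ltbp2, a latent TGF-beta binding protein family member of microfibrils, was 555 and 652 in the Pax6 line, 926, 970.3 and 991 in 3T3-Pax6(5a) cells, and 1603, 1587 and 2322 in the control line, 3.00-fold lower with Pax6 (adjusted p = 2.6e-05, limma) and 1.88-fold lower with Pax6(5a) (adjusted p = 0.0015, limma). Tgfbr1, the type I receptor, was 1764 and 1460.0 in the Pax6 line against 3388, 3647 and 3362 in the control line. It was 2.16-fold lower with Pax6 (adjusted p = 2.1e-05, limma). With Pax6(5a) it was 1.45-fold lower (adjusted p = 0.0041, limma), short of the fold limit. Smad3, a transducer that drives Ccn2 in many cells, fell 1.63-fold in both Pax6 lines, with 768 and 595 for Pax6, 630.2, 721 and 672 for Pax6(5a), and 1122, 1139 and 1044 in the control line (adjusted p = 0.0018 and 0.0013, limma). Tgfbi, a matrix protein named for its induction by TGF-beta, fell 2.80-fold with Pax6 (adjusted p = 0.00017, limma). With Pax6(5a) it was 1.57-fold lower and did not pass (adjusted p = 0.03, limma). Nbl1, a secreted antagonist of bone morphogenetic proteins, was undetected in both Pax6 lines and detected on 3 of 3 control arrays, which gives a fall of at least 1.38-fold for Pax6 and at least 1.43-fold for Pax6(5a) (adjusted p = 0.0019 and 0.00039, limma). Dcn, described above, was the other gene that passed the threshold as lower with Pax6(5a). Tgfb1 itself differed by -0.29 and 0.01 and did not pass.

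Wnt signalling gave Ccn4 and Ccn5 their earlier names. Of 31 measured Wnt pathway genes, 15 were detected on at least 2 arrays. With Pax6, 2 rose and 1 fell, and with Pax6(5a) 1 rose and 0 fell. The shares over all genes were 1.03% and 1.42% with Pax6, and 0.551% and 0.651% with Pax6(5a). The list medians were -0.02 and 0.01, against 0.00 for all genes. Wnt5a, a Wnt ligand that mostly signals without beta-catenin, was 465 and 465 in the Pax6 line, 275, 300.5 and 323 in 3T3-Pax6(5a) cells, and 269, 259 and 294 in the control line, 0.77 higher on the log2 scale with Pax6 than in the control line (adjusted p = 0.00028, limma) and 1.56-fold higher than with Pax6(5a) (adjusted p = 0.0035, limma). Rnf43, a ubiquitin ligase that removes Wnt receptors, was 1.86-fold higher with Pax6 (adjusted p = 0.0053, limma). Fzd1, a Wnt receptor, passed as lower with Pax6, but it was detected on 1 control array and no other array, so no fold is given. Dkk3, a divergent member of the Dickkopf family of secreted Wnt regulators, was 943, 893 and 674 in the Pax6(5a) line against 157, 158 and 156 in the control line, 5.28-fold higher (adjusted p = 3e-07, limma). At 128 and 101 in the Pax6 line, Dkk3 was 7.28-fold lower than with Pax6(5a) (adjusted p = 4.1e-07, limma). Wnt1 was detected on no array.

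**Figure D4:**
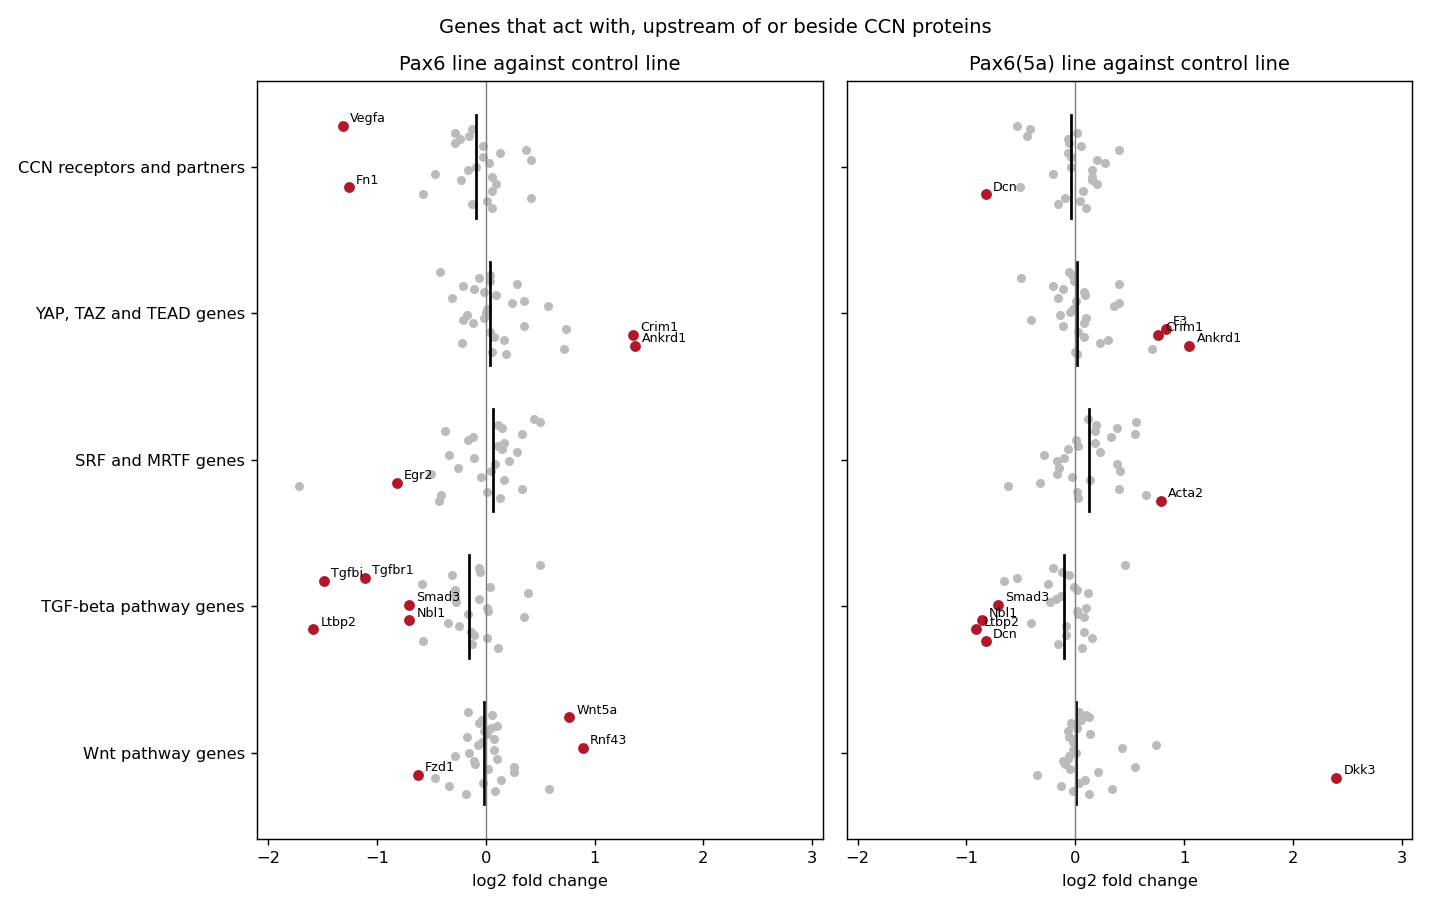
Points are the measured genes of each list (rows, spread alphabetically), plotted by log2 fold change (x axis) in the Pax6 line (left) and the Pax6(5a) line (right) against the control line. Red named points passed threshold 2, grey points did not, and black bars are list medians. Ankrd1 at 1.37 and 1.05 and Crim1 at 1.35 and 0.76 lie to the right in both panels, and Ltbp2 at -1.59 and -0.91 to the left. The points of Nbl1 and Fzd1 in both panels and Egr2 in the left panel rest on signals undetected in the Pax6 line concerned.

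Between the isoforms, Acta2, Wnt5a and Dkk3 were the only genes of the 5 lists past threshold 2. Between passages the only one was Thbs1, thrombospondin 1, a matricellular protein that activates latent TGF-beta. Thbs1 was 82.5 at the later against 128 at the earlier passage in the Pax6 line, 67.6 against 120 and 123 in 3T3-Pax6(5a) cells, and 56.9 against 80.8 and 83.0 in the control line (adjusted p = 0.00037, limma). It was undetected on the later Pax6(5a) and control arrays, so no fold over the lines is given. Like ILMN_2710253 of Ccn1, it was lower at the later passage in 3 of 3 lines.

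The endothelial marker Cdh5, VE-cadherin, was higher by 1.43 on the log2 scale with Pax6 (adjusted p = 4.7e-06, limma) and 0.73 with Pax6(5a) (adjusted p = 0.00076, limma). Cdh5 was also 0.69 higher with Pax6 than with Pax6(5a) (adjusted p = 0.0045, limma), a comparison in which 0 CCN genes passed threshold 2. The other 5 endothelial markers measured, Pecam1, Tek, Kdr, Tie1 and Emcn, were detected on no array. The summed signal of the 6 markers was 1130.2 to 1143 with Pax6, 769 to 892 with Pax6(5a) and 589 to 622 in the control line. Pdgfrb, a receptor for platelet-derived growth factor and a fibroblast marker, was lower with Pax6 than in the control line (log2 -0.87, adjusted p = 0.00011, limma) and than with Pax6(5a) (log2 -0.60, adjusted p = 0.0055, limma). Of the other fibroblast markers only Fn1, described above, passed with Pax6, while Col1a1 was at -0.24 and Vim at 0.18. The summed signal of the 9 fibroblast markers was 36075 to 36139 with Pax6, 39881 to 41322 with Pax6(5a) and 35960 to 43555 in the control line, so the Pax6 and control ranges overlapped. The summed signal of 4 chondrocyte markers was 5890.0 to 7776 with Pax6, 7106 to 8709 with Pax6(5a) and 8714 to 9366 in the control line, with Col2a1 and Matn1 detected on no array and neither Sox9 nor Acan past threshold 2. The part of these markers in the CCN values was not tested.

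Genes with the pattern most like each member were ranked by Pearson's r of log2 signal over the 8 arrays, among 8148 genes detected on at least 2 arrays. The arrays share 3 lines, so the r is a description. For Ccn1 (ILMN_2710253) the first 5 were Zdhhc12, a palmitoyltransferase (r = 0.987), Ankrd1 (0.987), Lig4, a DNA ligase of end joining (0.986), Ppm1f, a protein phosphatase (0.985), and Zdhhc9 (0.984). For Ccn2 they were Fzd2, a Wnt receptor (r = 0.992), Pkp2, a desmosomal plaque protein (0.987), Ankrd1 (0.986), Dyrk3, a protein kinase (0.982), and Hint3 (0.980). Ankrd1 stands in both lists, but Ccn1 and Ccn2 were selected for a shared pattern over these arrays, so this is not a second observation. The likeness is in the shape of the differences over the arrays and not in their size. Fzd2 was 290.0 and 288 in the Pax6 line, 277, 285 and 273 in 3T3-Pax6(5a) cells, and 241, 247 and 237 in the control line. Its log2 difference of 0.26 with Pax6 did not pass threshold 2.

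For Ccn4 the most alike were Cnot2, a subunit of the deadenylase complex (r = 0.988), Acat3, an acetyl-CoA acetyltransferase (0.987), Foxp1, a forkhead factor (0.979), H2-Ke6 (0.977) and Brd3, a bromodomain protein (0.975). For Ccn5, whose signal was mostly below detection, they were Fcgrt, the neonatal Fc receptor (r = 0.991), Sqle, the squalene epoxidase of sterol synthesis (0.990), Zfp521, a zinc finger protein (0.990), Angpt1, a ligand of the receptor Tek (0.987), and Flot1, a membrane raft protein (0.985). Within the family, r over the 8 arrays was 0.962 between Ccn1 and Ccn2 and 0.895 between Ccn4 and Ccn5. The family was selected because Ccn1 and Ccn2 were both higher in both Pax6 lines, so a high r between them follows from that choice. Every r with Ccn5 rests on a probe undetected on most arrays. The r was -0.686 between Ccn2 and Ccn4 and -0.739 between Ccn2 and Ccn5.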

How the data were processed

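RNA was labelled with biotin and read on 8 arrays at a core facility. The signal intensities of each probe, before and after quantile normalization, and the detection p-values were deposited by the authors. The scanning software and the method behind the detection p-values are not given in the sources used here. The deposited intensities before normalization were quantile normalized without background correction and put on the log2 scale, which equals the authors' normalized values to within 5e-06.

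Lines were compared with limma 3.58.1 (R 4.3.3), in 1 fit of 8 arrays with a mean per line, and passages with a mean per line plus a later against earlier term. P-values were adjusted by Benjamini-Hochberg over 24613 probes. The script was tested on simulated data. Of several probes to a gene, the brightest over the 8 arrays stood for it. Probes were assigned to genes by the array annotation, in which 20984 probes name 1 gene, 1 names several and 3628 name none. Symbols were updated to those of RefSeq by gene identifier where RefSeq lists the gene. Genes named are all members, list genes past threshold 2, others of the lists chosen after their values were seen, and the 5 genes most like each member. The members and lists were chosen with earlier results of these data known.

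Alternatives were neqc (offset 16), normexp (offset 50), median scaling, cyclic loess, the deposited normalized values, detected probes only, a variance trend, only the compared arrays, passage as covariate or block, averaged preparations, a random culture block, a replicate block, both thresholds and each array left out. Figures were drawn with matplotlib 3.10.9 in Python 3.11.15.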

Additional observations from a re-analysis of the deposited data

Results flagged for a closer look

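The sign of the later minus earlier difference was positive in the Pax6 line and negative in the other lines for a pair of CCN probes, although no test of the difference passed. For the second Ccn1 probe, ILMN_1235571, the later minus earlier difference on the log2 scale was 0.50 in the Pax6 line, -0.12 in the Pax6(5a) line and -0.44 in the control line. A test of the difference, added after seeing the data, gave an adjusted p of 0.11 for the Pax6 line against the control line and 0.50 against the Pax6(5a) line (limma). For Ccn2 the later minus earlier difference was 0.023 in the Pax6 line, -0.54 in the Pax6(5a) line and -0.56 in the control line, and the test gave adjusted p-values of 0.33 and 0.50 (limma); the Pax6 value is close to 0. Each line has 1 later array, and the Pax6 line 1 earlier array.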

How the results depend on the processing

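The count of CCN genes past threshold 2 stayed within 1.5 times its value under 21 of 24 alternatives with Pax6, 16 of 25 with Pax6(5a), 22 of 24 between the isoforms and 13 of 20 between passages. With Pax6 the 2 genes became 1 with neqc and with a variance trend, and with Pax6(5a) they became 1 at threshold 1, with neqc, with detected probes only, with a variance trend and with preparations averaged. Between the isoforms, 0 became 1 with passage number as a covariate and with earlier or later passage as a block. Between passages, 1 became 0 at threshold 1, with neqc, with preparations averaged and with the replicate block, and 3 at an adjusted p under 0.05 with no fold limit. Leaving out each array in turn gave 1 to 3 with Pax6, 1 to 3 with Pax6(5a), 0 to 0 between the isoforms and 0 to 1 between passages. The cause of these moves was not tested, and the list genes were not refitted under the alternatives.

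In the values that changed sign, ILMN_1235571 of Ccn1 between the isoforms was -0.031 with median scaling and -0.069 with the replicate block, and it lay between -0.23 (Pax6 replicate 2 left out) and 0.28 (Pax6 replicate 1 left out) with 1 array fewer. Between passages it was 0.50 with the replicate block, and with 1 array fewer it lay between -0.28 and 0.14, the upper value without control replicate 3. Ccn4 between the isoforms was -0.024 with median scaling and -0.024 with the replicate block, and with 1 array fewer it lay between -0.035 and 0.099. Replicate numbers were not shown to pair the arrays: deviations of same-numbered arrays correlated at -0.209 to 0.255. Between lines, arrays of the same passage stage correlated at 0.0867 to 0.284, and arrays of different stages at -0.284 to -0.0992. The deviations are from the line mean, so their signs within a line are tied to each other. Whether passage or a batch shared with it lies behind this was not tested. The replicate block raised the count with Pax6 to 3, Ccn5 being the added gene, and left 2 with Pax6(5a). Ccn5 passed threshold 2 as lower with Pax6 with a block for passage stage (-0.66), passage number as covariate (-0.89), the replicate block (-0.83), and when either control replicate 3 (-0.88) or Pax6(5a) replicate 3 (-0.71) was left out. With Pax6(5a) it passed with passage number as a covariate (-0.80), without control replicate 3 (-0.65) and at passage 13 only (-0.81), where it replaced Ccn1 in a count of 2. These Ccn5 values rest on signals undetected in both Pax6 lines.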
